A study of Mus musculus with 2 samples.

Results

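Transcripts of 10 secreted proteins were followed in hepatic stromal cell preparations from fibrotic mouse livers. They were the serum amyloid A genes Saa1, Saa2 and Saa3, haptoglobin (Hp), hemopexin (Hpx), the orosomucoids Orm1 and Orm2, the inter-alpha-trypsin inhibitor heavy chains Itih1 and Itih4, and fibrinogen-like 1 (Fgl1). They were chosen by symbol as acute-phase proteins, with Saa3, a gene that macrophages also transcribe, as a contrast. All 10 were found among the 38320 gene entries of both libraries, and all 10 were among the 12861 genes with a mean FPKM (fragments per kilobase, relative to the total of mapped fragments) of at least 1.

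Livers came from adult male C57/Bl6 mice that had received carbon tetrachloride (CCl4), a hepatotoxin, for 5 weeks, in both groups. Control mice were Foxf1fl/fl littermates, labelled wild-type, which carried floxed Foxf1 alleles without Cre. The other group, αSMACreER;Foxf1-/- in the text and αSMACreER;Foxf1 fl/fl (Knockout) in the labels, carried in addition a tamoxifen-inducible Cre under the promoter of α smooth muscle actin, so that recombination was directed to αSMA-expressing cells. Tamoxifen injections during the injury period activated the deletion. Liver cells were left to attach to plastic for 2 h, the adherent cells were kept, and RNA of several samples was pooled into 1 library per genotype. There was therefore no replicate, no test and no p-value, and each interval below is an approximate 95% interval of counting error that holds no variation between animals. The number of mice in a pool is not given in the sources used here.

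The cells were labelled stromal, but the stellate cell genes Des and Acta2 were at low levels in both libraries. Desmin (Des) stood at 1.70 FPKM in Foxf1fl/fl against 3.29 in αSMACreER;Foxf1-/- cells, and Acta2, which encodes αSMA, at 7.77 and 5.65. All 13 stellate cell and myofibroblast markers summed to 345 and 493 FPKM, and of the 10 past the filter 8 had log2 fold changes above 0 and 2, Acta2 among them, below. The 12 hepatocyte markers summed to 2902 and 1153 FPKM and the 12 macrophage markers to 12742 and 11135 FPKM. Neither of these lists had a marker at 0. In bulk RNA of this kind, fewer cells of a type and less RNA per cell cannot be told apart.

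The acute-phase response is the change in hepatocyte secretion that follows injury or infection. Interleukin 6, acting through STAT3, and interleukin 1 and tumor necrosis factor, acting through NF-kB, induce the positive acute-phase proteins together with the C/EBP factors, while negative acute-phase proteins such as albumin decline. SAA1 and SAA2 are carried on high-density lipoprotein, haptoglobin captures free hemoglobin, hemopexin captures heme, and orosomucoids bind small lipophilic molecules. Some ITIH heavy chains, ITIH1 among them, can be linked to hyaluronan. FGL1 is a hepatocyte secretory protein and a ligand of the T cell receptor LAG3.

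The serum amyloid A genes form a cluster on chromosome 7, and the sequence upstream of each shows how alike the members are. RefSeq windows of 250 bases before the start site were available for 7 of the 10 genes (Saa1, Saa2, Saa3, Hpx, Orm2, Itih1 and Itih4). The windows below are of Saa1 (chr7:46742981-46743230, minus strand), Saa2 (chr7:46751583-46751832, plus strand), Saa3 (chr7:46715677-46715926, minus strand) and Itih4 (chr14:30886226-30886475, plus strand) of GRCm38.p6. They are shown because Saa1 and Saa2 were lower by similar amounts, Saa3 by less, and Itih4 had the only STAT3 match. Capitals mark letters that matched a motif on either strand, which are C/EBP matches in Saa1 and Saa2, a STAT3 match in Itih4, and C/EBP matches in Saa3, where the run of 13 capitals joins a C/EBP match to an overlapping NF-kB match.
Saa1: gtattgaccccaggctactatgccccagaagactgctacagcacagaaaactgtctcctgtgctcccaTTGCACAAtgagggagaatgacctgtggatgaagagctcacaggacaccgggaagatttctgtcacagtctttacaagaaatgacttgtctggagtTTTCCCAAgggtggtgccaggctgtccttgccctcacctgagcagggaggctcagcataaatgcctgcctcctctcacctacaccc
Saa2: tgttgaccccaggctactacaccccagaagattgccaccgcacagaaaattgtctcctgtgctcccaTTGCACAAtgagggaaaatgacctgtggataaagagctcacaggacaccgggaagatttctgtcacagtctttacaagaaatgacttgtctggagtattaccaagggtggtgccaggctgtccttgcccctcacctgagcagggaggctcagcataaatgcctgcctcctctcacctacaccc
Saa3: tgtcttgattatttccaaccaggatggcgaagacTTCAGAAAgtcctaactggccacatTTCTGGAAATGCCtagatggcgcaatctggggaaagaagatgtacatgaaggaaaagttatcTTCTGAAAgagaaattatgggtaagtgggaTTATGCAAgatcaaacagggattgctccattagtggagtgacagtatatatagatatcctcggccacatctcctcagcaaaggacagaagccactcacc
Itih4: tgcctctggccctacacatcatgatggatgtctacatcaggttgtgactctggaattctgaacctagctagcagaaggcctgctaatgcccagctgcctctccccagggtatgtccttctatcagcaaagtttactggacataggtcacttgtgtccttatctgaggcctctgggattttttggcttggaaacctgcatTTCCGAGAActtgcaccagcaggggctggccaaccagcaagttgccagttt

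The Saa1 and Saa2 windows were identical at 238 of 249 aligned bases (95.6%), whereas the Saa3 window matched that of Saa1 at 64.4% and that of Saa2 at 61.9% of aligned bases. The C/EBP motif searched, TTNNGNAA, was present in 6 of the 7 windows and in 36.8% of 32851 windows of the same length across the genome. The STAT3 motif TTCNNNGAA was found in Itih4 alone of the 7 and in 7.02% of all windows. The NF-kB motif GGNNTTTCC was found in Saa3 alone of the 7 and in 4.93% of all windows. Neither the HNF1 motif GTTAATNAT (0.737% of all windows) nor the forkhead motif GTAAACA (3.17%) occurred in the 7 windows. A match describes letters in this window and not binding.

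Each of the 10 transcripts was less abundant in αSMACreER;Foxf1-/- than in Foxf1fl/fl cells. All 10 were at least 1.5-fold lower and 0 were higher, where 13.2% of the 12861 genes were at least 1.5-fold lower and 12.9% higher. The median log2 fold change was -1.76 for the 10 genes and 0.01 for all genes. Past 2-fold, 9 of the 10 were lower and 0 higher, against 6.22% and 4.52% of all genes. The summed level of the 9 genes other than Saa3 was 1575 FPKM in Foxf1fl/fl against 496 FPKM in αSMACreER;Foxf1-/- cells, and their median log2 fold change was -1.84. All 12 hepatocyte markers were lower as well, by log2 fold changes of -1.93 to -0.73 with a median of -1.40, and their part in the result was not tested.

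**Figure D1:**
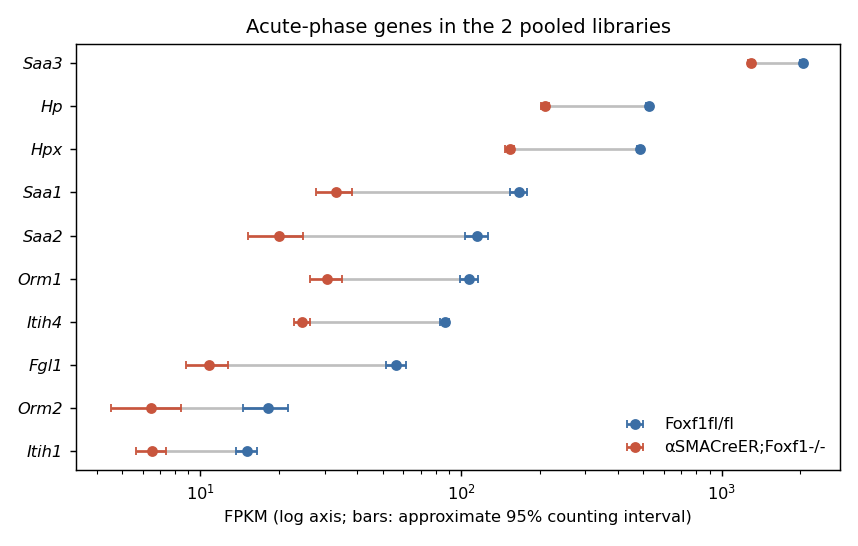
FPKM of the 10 acute-phase transcripts on a log axis, with 1 point per library (Foxf1fl/fl and αSMACreER;Foxf1-/-) and bars for the approximate 95% counting interval. Every αSMACreER;Foxf1-/- point lies below its Foxf1fl/fl point, with the narrowest gap at Saa3 (2052 and 1299 FPKM) and the widest at Saa2 (115 and 19.99 FPKM).

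Levels spanned a wide range among the genes. Per kilobase, Saa3 was the most abundant in both libraries, and Hp and Hpx came next in both. In Foxf1fl/fl cells the order continued with Saa1, Saa2, Orm1, Itih4, Fgl1, Orm2 and Itih1. The counting intervals of the neighbors Saa2 and Orm1 overlapped, as did those of Orm2 and Itih1. In αSMACreER;Foxf1-/- cells Saa2 stood below Orm1 and Itih4, and the intervals overlapped between Saa1 and Orm1, Orm1 and Itih4, Itih4 and Saa2, and Itih1 and Orm2. Saa3 exceeded Hp by a ratio of 3.91 in Foxf1fl/fl against 6.18 in αSMACreER;Foxf1-/- cells.

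Among the serum amyloid A genes, the hepatocyte pair differed far more between the libraries than Saa3. Saa1 (ENSMUSG00000074115, chromosome 7 from 46740497 to 46742980 of GRCm38) stood at 166 FPKM in Foxf1fl/fl against 33.1 FPKM in αSMACreER;Foxf1-/- cells, from an estimated 660 and 151 reads. It was 5.11-fold lower, or -2.35 on the log2 scale (counting interval -2.61 to -2.10). Saa2 (ENSMUSG00000057465, chromosome 7 from 46751790 to 46754313) stood at 115 and 19.99 FPKM, a log2 fold change of -2.55 (-2.92 to -2.18). This was the largest difference of the 10 genes without a correction for length, and 1.01% of all genes past the filter were lowered more. The ratio of Saa1 to Saa2 was 1.44 in Foxf1fl/fl against 1.65 in αSMACreER;Foxf1-/- cells, and the interval of its log2 change ran from -0.25 to 0.65. The longest coding transcripts of the pair were 94.4% identical. Over the 2 annotated Saa1 transcripts, 18.5% of the possible 75-base reads matched Saa2 exactly, so the split of reads between the genes is uncertain. The longest Saa1 transcript has 2446 bases and the coding one 609, and the share for the coding transcript alone was not computed.

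Saa3 (ENSMUSG00000040026, chromosome 7 from 46711998 to 46715700) was the contrast gene. It stood at 2052 FPKM in Foxf1fl/fl cells, where 0.27% of genes were higher, and at 1299 FPKM in the αSMACreER;Foxf1-/- library. Its log2 fold change was -0.68 (-0.74 to -0.63), which was 1.15 above the median of the other 9 genes. The ratio of Saa3 to Saa1 was 12.3 in Foxf1fl/fl against 39.3 in αSMACreER;Foxf1-/- cells, a log2 change of 1.67 (1.41 to 1.93). With the libraries scaled to an equal FPKM sum, the log2 fold change of Saa3 was -0.48. With a trend on transcript length removed it was -0.55, and both fell short of 1.5-fold. The trend was read at its longest transcript, of 2200 bases, in a length group with a median of -0.13. Its shortest coding transcript has 555 bases, and the group of 552 to 982 bases had a median of -0.41. The corrected value of Saa3 thus depends on the transcript chosen. Saa4, the constitutively expressed family member, was far less abundant, at 7.196 and 1.99 FPKM, with a log2 fold change of -1.83 (-2.32 to -1.33).

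The macrophage markers as a list differed less than Saa3. Of the 12 macrophage markers 1 was at least 1.5-fold lower, against 13.2% of all genes. It was Clec4f, a Kupffer cell lectin, at 1117 and 753 FPKM. The median log2 fold change of the 12 was -0.23, with 9 below 0 and 3 above. With the trend on transcript length removed, 0 of the 12 were lower by 1.5-fold, against 11.2% of all genes. Their median was then -0.01, where Saa3 stood at -0.55 when placed by its longest transcript. Relative to Clec4f, Saa3 stood at a ratio of 1.84 in Foxf1fl/fl against 1.73 in αSMACreER;Foxf1-/- cells. Relative to Cd68, which encodes a lysosomal protein of macrophages and stood at 646 and 679 FPKM, Saa3 had ratios of 3.18 and 1.91. Cd68 is 1 of the 3 markers above 0, as is Adgre1, the gene of the F4/80 antigen, at 162 and 165 FPKM, so the ratio depends on the marker chosen. Of the markers of adipocytes, another source of Saa3, Adipoq was listed at 0 in both libraries and Plin1 at 0 in Foxf1fl/fl cells. Which cells expressed Saa3 was not tested.

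The hemoglobin and heme scavengers were abundant in both libraries and differed by unequal amounts. Hp (ENSMUSG00000031722, chromosome 8 from 109575128 to 109579172) stood at 524 FPKM in Foxf1fl/fl against 210.1 FPKM in αSMACreER;Foxf1-/- cells, a log2 difference of -1.34 (-1.41 to -1.28). Hpx (ENSMUSG00000030895, chromosome 7 from 105591613 to 105600137) stood at 485 and 154 FPKM, a log2 fold change of -1.68 (-1.75 to -1.61). The pair was nearly equal in Foxf1fl/fl cells, with an Hp to Hpx ratio of 1.08, and the ratio was 1.37 in αSMACreER;Foxf1-/- cells, a log2 change of 0.34 (0.24 to 0.44). The clearance partners of these proteins were also read. Cd163, the macrophage receptor for haptoglobin-hemoglobin complexes, stood at 30.0 and 18.1 FPKM (log2 fold change -0.75). Hmox1, the heme-degrading enzyme, stood at 933 and 650.5 FPKM (-0.55), and Lrp1, the hemopexin-heme receptor, at 155 and 143 FPKM (-0.14).

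The orosomucoid genes lie side by side on chromosome 4. Orm1 (ENSMUSG00000039196, from 63344560 to 63348163) stood at 108 FPKM in Foxf1fl/fl against 30.6 FPKM in αSMACreER;Foxf1-/- cells, a log2 difference of -1.84 (-2.07 to -1.60). Orm2 (ENSMUSG00000061540, from 63362449 to 63365878) stood at 18.1 and 6.49 FPKM, a log2 fold change of -1.49 (-2.01 to -0.97). Orm2 rested on an estimated 101 and 42 reads, the fewest of the 10 genes, and its interval was the widest. The ratio of Orm1 to Orm2 was 5.95 and 4.71, and the interval of its log2 change, -0.91 to 0.23, included 0. Orm3 stood at 1.29 and 0.655 FPKM, below the filter, from an estimated 7 and 4 reads. The longest coding transcripts of Orm1 and Orm2 were 91.0% identical, and 13.8% of the possible 75-base reads of Orm1 matched Orm2, so their split is uncertain as well.

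The inter-alpha-trypsin inhibitor heavy chains were lower in αSMACreER;Foxf1-/- cells, Itih4 by more than its neighbors on chromosome 14. Itih4 (ENSMUSG00000021922, from 30886476 to 30902353) stood at 86.6 FPKM in Foxf1fl/fl against 24.6 FPKM in αSMACreER;Foxf1-/- cells, a log2 difference of -1.84 (-1.95 to -1.72). Itih1 (ENSMUSG00000006529, from 30929180 to 30943289) stood at 15.1 and 6.52 FPKM, a log2 fold change of -1.22 (-1.46 to -0.99). Without a correction for length, Itih1 thus had the smallest difference of the 9 genes other than Saa3, with an interval that overlapped that of Hp. With the trend on transcript length removed, Hp (-1.04) and Orm2 (-1.08) differed less than Itih1 (-1.23). The ratio of Itih4 to Itih1 was 5.73 in Foxf1fl/fl against 3.78 in αSMACreER;Foxf1-/- cells, a log2 change of -0.60 (-0.87 to -0.34). Itih3, which lies between them, stood at 26.8 and 11.9 FPKM (-1.18), and its ratio to Itih1 was 1.77 and 1.83. Itih2 stood at 19.8 and 9.98 FPKM (-1.01). Ambp, which encodes the bikunin light chain that the heavy chains other than Itih4 can be joined to, stood at 136 and 52.6 FPKM (-1.40). Itih5, a family member expressed outside the liver, stood at 0.468 and 0.949 FPKM and did not pass the filter.

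Fgl1 (ENSMUSG00000031594, chromosome 8 from 41191434 to 41215156) ranked next to Saa2 in the size of its difference. It stood at 56.5 FPKM in Foxf1fl/fl against 10.8 FPKM in αSMACreER;Foxf1-/- cells, from an estimated 505 and 111 reads, which is 5.29-fold lower. Of the 10 genes Saa2 was lower by more, an order that turned with the trend on the longest transcript removed (-2.52 for Fgl1 and -2.46 for Saa2), and 1.14% of all genes past the filter were lowered more. The counting interval of Fgl1 on the log2 scale ran from -2.70 to -2.11. It overlapped those of Saa1 and Saa2 and lay below those of all the other genes of the set. Its relative Fgl2, which immune cells express as a prothrombinase, was higher in αSMACreER;Foxf1-/- cells by less than 1.5-fold, at 22.05 and 29.4 FPKM. Lag3, the FGL1 receptor gene, stood at 14.5 and 15.9 FPKM, a log2 fold change of 0.11 (-0.13 to 0.34). The 3 genes nearest to Fgl1 in level over both libraries were Snora34, Gm17711 and Igkv3-2, at log2 distances of 0.10, 0.26 and 0.28.

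Expressed per albumin transcript, the genes differed in how far they moved with Alb. Alb itself, the main hepatocyte product and a negative acute-phase gene, stood at 2292 and 912 FPKM, a log2 fold change of -1.35 (-1.38 to -1.33). Saa2 was lower relative to Alb by a log2 ratio change of -1.20 (-1.57 to -0.83), Fgl1 by -1.06 (-1.36 to -0.76) and Saa1 by -1.002 (-1.26 to -0.75). Fgl1 amounted to 2.47% of the Alb level in Foxf1fl/fl against 1.18% in αSMACreER;Foxf1-/- cells. Orm1 (-0.49), Itih4 (-0.48) and Hpx (-0.33) were lowered more than Alb by smaller amounts, with intervals that did not include 0. The intervals of Orm2 (-0.67 to 0.37), Hp (-0.06 to 0.08) and Itih1 (-0.12 to 0.36) included 0. With the trend on coding transcript length removed, the change of Orm1 was -0.23, smaller than the 0.23 that its counting interval spans on either side. That of Hp was then 0.13, more than the 0.07 of its own counting interval, which holds no error of the length correction. Without the correction it was 0.01, so whether Hp was lowered less than Alb depends on the setting. Hp amounted to 22.9% and 23.0% of Alb, while Saa3 amounted to 89.5% and 142%. By point values, Saa1, Saa2 and Fgl1 were each lowered more than all 12 hepatocyte markers. The most lowered of these markers was Asgr1, the asialoglycoprotein receptor gene, at 25.55 and 6.73 FPKM (-1.93). With the trend on coding transcript length removed, Saa1 (-1.92) no longer lay below Apob (-1.94). Saa2 (-2.11) and Fgl1 (-2.04) still did, but by less than the 0.37 and 0.30 that their counting intervals span on either side.

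**Figure D2:**
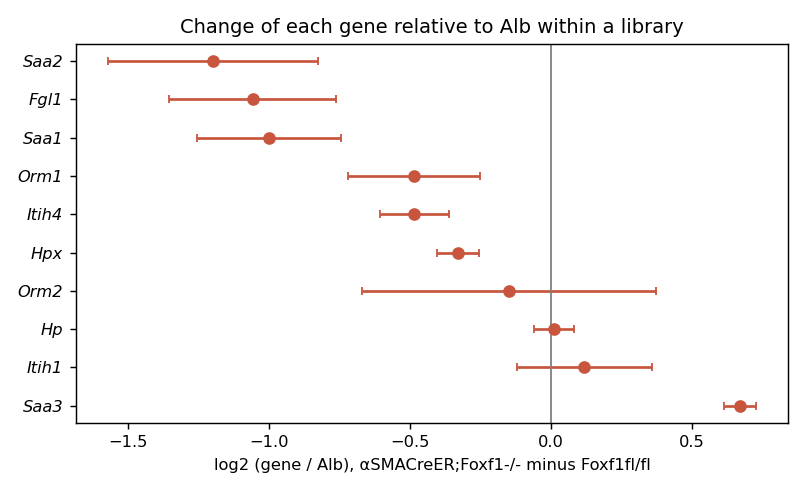
Change in the log2 ratio of each acute-phase transcript to Alb, αSMACreER;Foxf1-/- minus Foxf1fl/fl, with approximate 95% counting intervals and a line at 0 for a change equal to that of Alb. Saa2, Fgl1 and Saa1 lie at -1.20, -1.06 and -1.002, Hp, Itih1 and Orm2 span 0, and Saa3 lies at 0.67.

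Other positive acute-phase genes were mostly lower too, but several of the most abundant were not. Of the 32 listed, 31 passed the filter, and 22 were at least 1.5-fold lower and 0 higher, against 13.2% and 12.9% of all genes. Their median log2 fold change was -1.18. With the trend on transcript length removed, 20 were lower, against 11.2% of all genes. The largest difference was at Serpina1e, an α1-antitrypsin paralog, with 123 FPKM in Foxf1fl/fl against 15.9 FPKM in αSMACreER;Foxf1-/- cells (-2.97). Reads of the Serpina1 paralogs may also be split uncertainly. Apcs, the serum amyloid P gene, stood at 13.4 and 3.60 FPKM (-1.89). The metallothioneins Mt1 (1788 and 1095 FPKM, -0.73) and Mt2 (1551 and 962 FPKM, -0.71), which bind zinc and copper, differed about as much as Saa3. With the trend on transcript length removed, Mt1 (-0.39) and Mt2 (-0.34) fell short of 1.5-fold and of Saa3 (-0.55). That order rests on the longest transcript of each gene, of 1085 bases for Mt1, 511 for Mt2 and 2200 for Saa3. The shortest coding transcript of Saa3 has 555 bases, so the order depends on the transcript chosen. Without removal of the trend, the other 9 genes past the filter were neither lower nor higher by 1.5-fold. Among them were complement C3 (812 and 897 FPKM), complement factor B, Cfb (269.9 and 308 FPKM), and the interleukin 1 receptor antagonist Il1rn (1095 and 1202 FPKM).

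Negative acute-phase genes, which the response represses, differed in the same direction as the positive ones. Of 15 genes, 14 were at least 1.5-fold lower, against 13.2% of all genes, with a median log2 fold change of -1.48. Ttr, the thyroxine carrier transthyretin, stood at 322 and 86.8 FPKM (-1.92). Fetub, a fetuin, stood at 24.7 and 5.92 FPKM (-2.07), and Ahsg, its relative, at 364 and 138 FPKM (-1.42). Apoa2, an apolipoprotein of high-density lipoprotein, stood at 782 and 220.3 FPKM (-1.85). Trf, the transferrin gene, differed least among the 14, at 881 and 560.4 FPKM (-0.68). The exception was Igf1, an insulin-like growth factor that macrophages also make, at 135 and 130.1 FPKM.

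**Figure D3:**
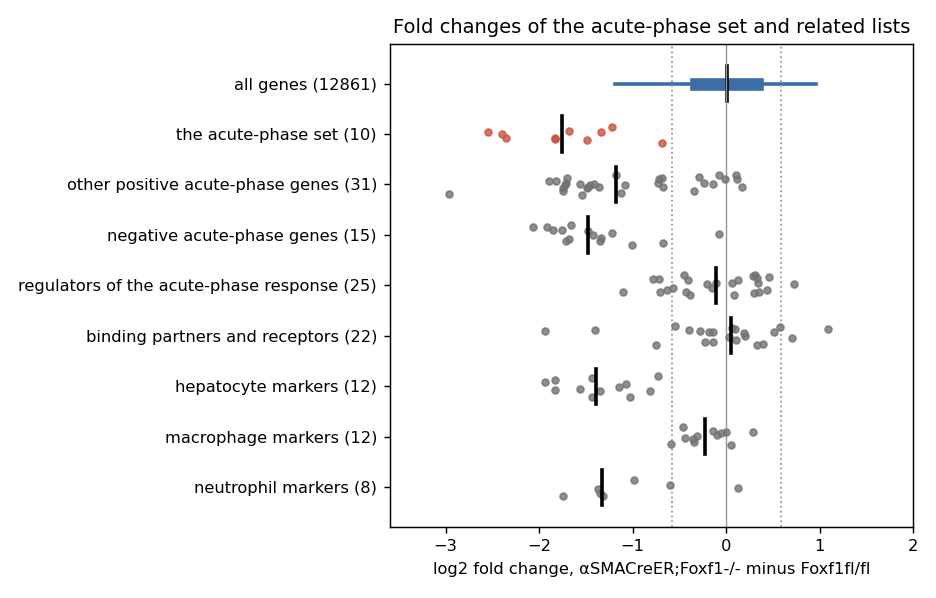
Log2 fold changes, αSMACreER;Foxf1-/- minus Foxf1fl/fl, of single genes past the filter in the acute-phase set, the related lists and the hepatocyte, macrophage and neutrophil markers, with the median of each list, dotted lines at 1.5-fold and, for all genes, a thick bar for the interquartile range and a thin line from the 5th to the 95th percentile. The acute-phase, negative acute-phase and hepatocyte lists lie below 0, the regulators and macrophage markers lie around 0, and Ly6g, a neutrophil marker listed at 0 in αSMACreER;Foxf1-/- cells, is off the axis.

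The signals and factors that drive the acute-phase response differed little as a list. Of 29 genes, 25 passed the filter, 5 were at least 1.5-fold lower and 1 was higher, with a median log2 fold change of -0.11. The background was 13.2% lower and 12.9% higher. The cytokine genes among the 5 were Il6, at 205 and 135 FPKM (-0.63), and Tnf, at 575 and 359 FPKM (-0.70). The others were the transcription factors Cebpb (678 and 401 FPKM, -0.78), Cebpd (165 and 102 FPKM, -0.72) and Hnf4a, a hepatocyte regulator (5.99 and 2.79 FPKM, -1.10). Osmr, the oncostatin M receptor gene, was higher, at 10.6 and 17.9 FPKM (0.73). Il1b stood at 1623 and 1111 FPKM (-0.57), and Nfkbia, the NF-kB inhibitor gene, at 1200.03 and 933 FPKM (-0.39). Socs3, a STAT3 target that limits interleukin 6 signaling, stood at 1455 and 1374 FPKM (-0.11), and Il6ra, the interleukin 6 receptor gene, at 4.46 and 6.25 FPKM (0.45). With the trend on transcript length removed, Cebpd, Hnf4a and the leukemia inhibitory factor receptor gene Lifr were lower and 0 genes were higher, against 11.2% and 10.0% of all genes. Il6 (-0.54), Tnf (-0.46), Cebpb (-0.48) and Osmr did not pass 1.5-fold in that setting.

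Of the 22 genes for binding partners and receptors, 3 were lower (Cd163, Ambp and Asgr1) and 2 higher by at least 1.5-fold. The higher genes were Tlr4, a receptor reported for serum amyloid A, at 4.83 and 10.5 FPKM (1.09), and Has2, a hyaluronan synthase, at 0.852 and 1.48 FPKM (0.70). Neither share stood far from the background of 13.2% and 12.9%. The hyaluronan receptor gene Cd44 stood at 204 and 260 FPKM, Tlr2 at 168 and 155 FPKM, and the scavenger receptor gene Cd36 at 128 and 185 FPKM.

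Fold changes moved with transcript length in this pair of libraries. Across 12701 genes Spearman's rho between the log2 fold change and the length of the longest coding transcript was 0.47, a description over genes that are not independent and share 2 libraries. The shortest transcripts of the set, those of Saa1, Saa2, Orm1 and Orm2, belong to a length group with a median log2 fold change of -0.44. After the median of the length group was subtracted, 9 of the 10 genes were at least 1.5-fold lower and 0 higher, against 10.8% and 9.79% of all genes, and the median of the 9 genes other than Saa3 was -1.44. Fgl1 (-2.04), Saa2 (-2.11), Saa1 (-1.92) and Itih4 (-1.92) then had the largest differences, and Itih4 exceeded Orm1 (-1.40). The part of the length trend in these differences was not tested.

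**Figure D4:**
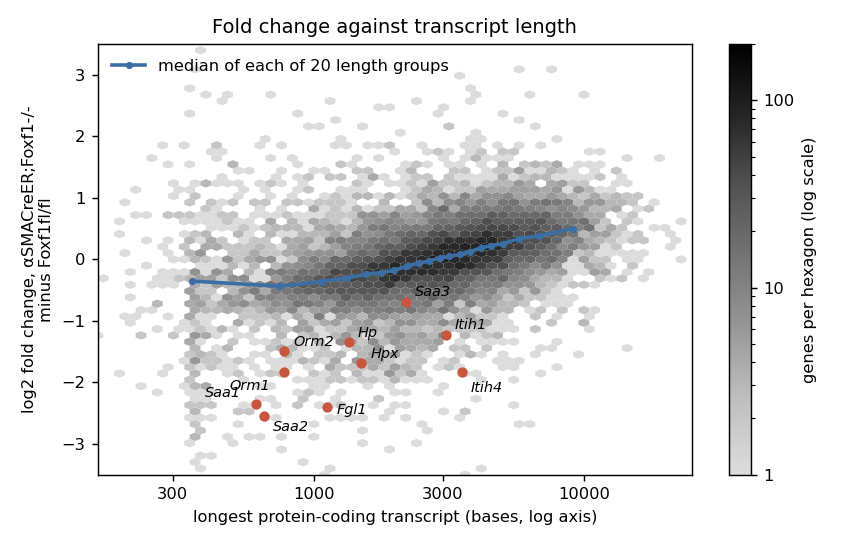
Log2 fold change, αSMACreER;Foxf1-/- minus Foxf1fl/fl, against the length of the longest protein-coding transcript on a log axis, with all genes as shaded hexagons, the median of 20 length groups as a line and the 10 acute-phase transcripts as labelled points. The 10 points lie below the line, Saa3 closest to it; genes beyond 3.5 on either side are not drawn.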

How the data were processed

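RNA was sequenced as 75-base single-end reads from 1 pooled library per genotype. Reads had been aligned with TopHat, and the authors deposited Cufflinks FPKM values per Ensembl gene, and the submitters' processing notes name TopHat, DESeq and mm10. No counts were used here, and Foxf1 was not analysed here. Symbols came from GENCODE M21 (GRCm38) and matched 36574 of 38320 entries (95.4%). For a symbol with several entries the highest was kept, and 3 entries with a status other than OK were left out.

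αSMACreER;Foxf1-/- values were divided by 1.02, the median ratio of 12011 genes that reached 1 FPKM in each library. Log2 fold changes used a pseudocount of 0.1, which understates changes of low genes, and a filter of mean FPKM of at least 1. A threshold of 1.5-fold stood in for a test. The study used this fold together with a limit on the false discovery rate, which was not applied here. An equal FPKM sum as the scale moved the median of all genes to 0.21, with 8.72% lower and 21.9% higher.

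Depth was estimated from the spacing of low values at 9.71 M and 11.2 M reads, and 89.5% and 89.9% of these values came within 0.25 of a whole number of reads. Counting intervals rest on this estimate and the shortest coding transcript.

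The genes and lists were chosen with earlier results of these data known. Named were the 10 genes, their families, Alb, the 4 most abundant, 2 most raised and 2 most lowered genes of each list, the 2 markers listed first for each cell type (not the most abundant) and the 3 genes nearest in level to Fgl1. The genes nearest to Saa3 are not reported here. Cd163, Lrp1, Lag3, Il6, Tnf, Cebpd, Igf1, Cd68, Ly6g, Csf3r, Cd4 and Krt8 were named after their values were seen or for their role. Promoters are RefSeq sequences of GRCm38.p6. Calculations, tested on simulated data, used Python 3.11.15, numpy 2.4.6, pandas 2.3.3, scipy 1.17.1, matplotlib 3.10.9 and Biopython 1.88.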

Additional observations from a re-analysis of the deposited data

How the results depend on the processing

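No paired analysis was possible because neither genotype had more than 1 library. Of the 10 acute-phase genes, 9 stayed at least 1.5-fold lower in all 10 settings that give a value per gene. Saa3 did so in 7. The median of the 9 other genes, -1.84, became -1.43 with the trend on the longest transcript removed and -1.44 on coding transcripts, the second of these chosen after seeing the data. The distance of Saa3 from that median, 1.15, became 0.88 and 0.86. The median of the other positive acute-phase genes became -0.98 at an equal FPKM sum, and that of the negative genes became -1.28 at an equal sum, -1.31 and -1.30 under the length trends. The counts of all genes lower and higher, 1697 and 1662, became 1121 and 2820 at an equal sum, 3304 and 3978 with no filter, 953 and 692 at a minimum mean of 5 FPKM, and 800 and 581 at 2-fold. At an equal sum 71.5% of the genes past 1.5-fold were higher, against 49.4%, and at upper-quartile scaling 59.9%. The fold change of each of the 10 genes kept its sign in every setting. The log2 ratio to Alb changed sign under the length trends for Orm2, from -0.13 to 0.06 and 0.12, and for Itih1, from 0.13 to -0.09 and -0.10, within counting intervals that include 0. The fold changes and ratios to Alb of the 10 genes gave 180 values under the alternatives, and 27 moved by more than their counting interval. Ratios to Alb could hardly move where only the scaling changed. Summing the entries of a symbol changed no value, so 27 of 180 does not measure how stable the results are.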

Other observations

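Of 8 neutrophil markers, 7 were at least 1.5-fold lower in αSMACreER;Foxf1-/- cells, against 13.2% of all genes, with a median log2 fold change of -1.33. With the trend on transcript length removed, 5 were lower and the median was -0.96, against 12 of 12 and -1.26 for the hepatocyte markers. In that setting 11.2% of all genes were lower. The neutrophil markers summed to 2331 FPKM in Foxf1fl/fl and 966 FPKM in αSMACreER;Foxf1-/- cells. S100a8 and S100a9, the calprotectin subunits, stood at 625 and 256 FPKM and at 1258 and 504 FPKM. Ly6g was listed at 9.82 FPKM in Foxf1fl/fl and at 0 in αSMACreER;Foxf1-/- cells, while Csf3r, the granulocyte colony-stimulating factor receptor gene, had a log2 fold change of 0.12. Lcn2, an acute-phase gene that neutrophils also express and that was named after its value was seen, stood at 190 and 88.6 FPKM. The part of neutrophil RNA in the values of Lcn2 was not tested.

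Of the 13 stellate cell and myofibroblast markers, 10 passed the filter, with 0 lower and 2 higher by 1.5-fold. The 13 summed to 345 and 493 FPKM. Over all genes past the filter, 13.2% were lower and 12.9% higher, the shares to set beside each count in this paragraph. Of 9 endothelial markers 0 were lower or higher, and the first listed were Pecam1, at 93.25 and 96.6 FPKM, and Stab2, at 64.0 and 85.9 FPKM. Of the 5 cholangiocyte markers past the filter 0 were lower or higher, among them the keratin genes Krt19, at 39.7 and 29.5 FPKM, and Krt7, at 4.91 and 6.91 FPKM. Of 8 lymphocyte markers 1, Cd4, was higher, at 6.34 and 14.1 FPKM, while the T cell receptor complex genes Cd3e and Cd3d stood at 8.02 and 9.88 FPKM and at 7.90 and 8.96 FPKM. Of the adipocyte and mesothelial list, 4 genes passed the filter and 1, the keratin gene Krt8, was lower, at 130.2 and 75.1 FPKM. Krt8 made up most of the list's 161 FPKM in Foxf1fl/fl cells, and which cells expressed it was not tested.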
